A study of Mus musculus with 7 samples.

Results

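The genes described here are 10 genes of antigen presentation by major histocompatibility complex (MHC) class II: the class II chains H2-Aa, H2-Ab1 and H2-Eb1, the invariant chain Cd74, the peptide-loading genes H2-DMa and H2-DMb1, the regulator Ciita, and Cd80, Cd86 and Cd40, which give or receive co-stimulatory signals. They were taken by symbol, and all 10 were found among the 48820 gene identifiers of a raw count table of whole tibialis anterior (TA) muscle. The muscle came from male mice of 7 weeks, at day 3 after injury with BaCl2, a salt that kills muscle fibres. The 3 control libraries had the genotype WT; Pax7-CreERT2 and the 4 Sirt7 scKO libraries the genotype Sirt7fl/fl; Pax7-CreERT2. Both groups therefore carried Pax7-CreERT2, a drug-inducible Cre driven from Pax7, which marks muscle stem cells, and both were injured. Dosing of the inducing drug is not given in the sources used here. Deletion was directed to the stem cell lineage, whereas the RNA came from every cell of the muscle.

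MHC class II molecules present peptides from engulfed material to CD4+ T cells. Their alpha and beta chains assemble with the invariant chain CD74, which fills the peptide groove until lysosomal proteases cut it away, and H2-DM then exchanges the last fragment of CD74 for a peptide. CIITA switches the class II genes on through proteins bound at conserved X and Y boxes in their promoters, and CD80 and CD86 supply the second signal to the T cell. Macrophages, dendritic cells and B cells are the main cells that make class II, and monocytes and macrophages enter injured muscle in large numbers in the first days.

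Total counts ran from 5425095 to 7553137 per library. Sirt7, a deacylase, stood at 46.2 to 70.6 CPM (counts scaled to a common library size with TMM factors) in the control libraries and at 34.1 to 52.97 CPM in the Sirt7 scKO libraries, and the groups overlapped (log2 fold change -0.42, SE 0.162, edgeR adjusted p = 0.288). These reads covered the whole gene in whole muscle and do not follow the floxed part or the stem cells alone. The summed level of 7 muscle fibre markers differed widely within both groups, from 1712 to 4561 CPM in control and from 477 to 3026 CPM in Sirt7 scKO. The labels call the libraries of a group biological replicates.

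Promoter windows of 3 class II genes are shown first because they carry X and Y box letters in the same order. RefSeq promoter windows of GRCm38.p6, 250 bases before to 50 after a gene start, were at hand for 5 of the 10 genes (H2-Aa, H2-Eb1, H2-DMa, H2-DMb1 and Cd80). The windows of H2-Eb1 (chr17:34305617-34305916, plus strand), H2-Aa (chr17:34287774-34288073, minus strand) and H2-DMb1 (chr17:34152941-34153240, plus strand) are printed 5′ to 3′ along the gene. Capitals mark an X box core written as CTNNNAAC and the Y box ATTGG.
H2-Eb1: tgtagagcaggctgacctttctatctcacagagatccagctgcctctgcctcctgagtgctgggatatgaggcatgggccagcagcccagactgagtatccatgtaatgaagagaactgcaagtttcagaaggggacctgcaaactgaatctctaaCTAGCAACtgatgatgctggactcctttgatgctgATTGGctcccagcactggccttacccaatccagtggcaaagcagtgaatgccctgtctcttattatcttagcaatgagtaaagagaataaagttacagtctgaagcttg
H2-Aa: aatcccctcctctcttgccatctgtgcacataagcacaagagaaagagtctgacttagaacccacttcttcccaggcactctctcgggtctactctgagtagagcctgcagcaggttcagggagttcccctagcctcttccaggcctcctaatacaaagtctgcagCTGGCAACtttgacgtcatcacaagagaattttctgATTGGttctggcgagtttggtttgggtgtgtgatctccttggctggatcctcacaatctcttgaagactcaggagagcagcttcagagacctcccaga
H2-DMb1: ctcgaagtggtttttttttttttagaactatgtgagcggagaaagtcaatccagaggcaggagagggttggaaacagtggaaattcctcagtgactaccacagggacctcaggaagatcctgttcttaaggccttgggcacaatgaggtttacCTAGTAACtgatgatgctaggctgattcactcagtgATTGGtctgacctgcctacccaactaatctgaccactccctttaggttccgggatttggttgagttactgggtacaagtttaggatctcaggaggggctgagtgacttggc

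The marked X core began 94, 84 and 97 bases before the gene start in H2-Eb1, H2-Aa and H2-DMb1, and the Y box began 35, 36 and 36 bases after the X core. Searched on both strands, AGCAAC was in 14.8% of 32851 promoter windows, ATTGG in 37.4%, and AGCAAC followed by ATTGG within 10 to 40 bases on the same strand in 0.469%. Of the 5 genes with a window, H2-Eb1 held this ordered pair. H2-Ab1, Cd74, Ciita, Cd86 and Cd40 had no window and were not searched. H2-Aa and H2-DMb1 differ from AGCAAC in the X core, and the wider form CTNNNAAC was written after these sequences had been read. CTNNNAAC was in 41.1% of windows, and CTNNNAAC followed by ATTGG at the same spacing in 1.27%. Outside the 10 genes, the class II genes H2-Oa, H2-Ob and H2-Eb2 also held the AGCAAC pair, and H2-DMb2 and H2-Ob the wider one. The window of Cd80 and both windows of H2-DMa held neither pair. The H2-DMa windows began at 34122582 and 34125268, inside its annotated span of 34119541 to 34139101. No transcript start was found in the second of them. Other starts of H2-DMa were not searched. A match describes letters and does not show that a factor was bound.

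Transcripts of the presentation apparatus were abundant in injured muscle and the co-stimulatory genes were low. On a per-length scale (CPM per kilobase of annotated exons, mean ± SD of the 3 control libraries), Cd74 stood at 312 ± 51.8, H2-Eb1 at 121 ± 19.5, H2-Ab1 at 107 ± 23.4 and H2-Aa at 68.2 ± 10.5. The loading genes followed, with H2-DMb1 at 28.6 ± 5.69 and H2-DMa at 18.3 ± 2.12. Cd86 stood at 5.51 ± 0.63, Cd40 at 5.21 ± 0.85, Ciita at 2.62 ± 0.237 and Cd80 at 2.27 ± 0.894. Within each of the 7 libraries Cd74 lay above H2-Eb1, H2-Eb1 above H2-Ab1 (1.06-fold to 1.19-fold), H2-Ab1 above H2-Aa (1.18-fold to 1.67-fold), H2-Aa above H2-DMb1 and H2-DMb1 above H2-DMa, on this scale. Over all 7 libraries the ranges of H2-Eb1 and H2-Ab1 nevertheless overlapped, as did those of H2-Ab1 and H2-Aa. Before division by length, H2-Ab1 had more counts than H2-Eb1 in every library (H2-Eb1 over H2-Ab1 from 0.805 to 0.898). The exonic lengths used were 1944 bases for H2-Eb1 and 2568 for H2-Ab1. Single transcripts of these genes measure 1669 and 1212 bases, so the order of H2-Eb1 and H2-Ab1 depends on the length used. Likewise H2-DMa had more counts than H2-DMb1 in every library, with exonic lengths of 3448 and 1681 bases. The ratio of H2-Aa to H2-Ab1 counts ran from 0.886 to 1.25, with lengths of 3798 and 2568 bases. The order within these pairs therefore also rests on the length used. Cd40 lay above Cd86 in 3 of 7 libraries and Ciita above Cd80 in 3 of 7, and these neighbours had no fixed order. Together the 10 genes made up 0.117% to 0.171% of a library's counts, and Cd74 alone 34.3% to 36.5% of the counts of the 10.

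**Figure D1:**
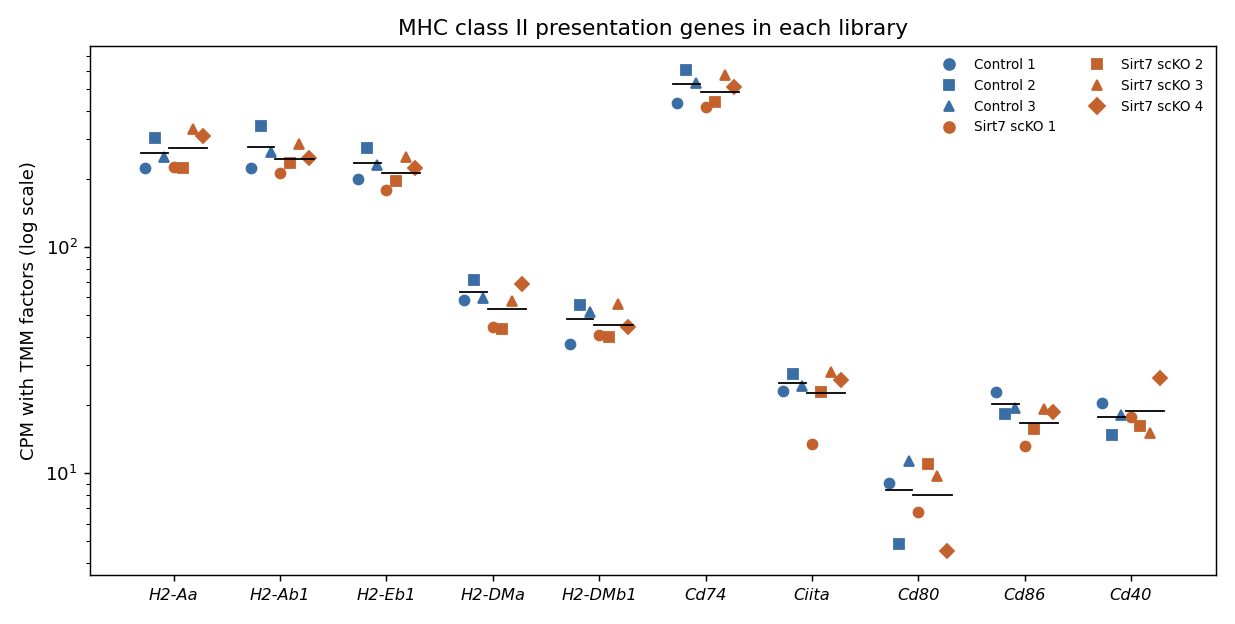
CPM of the 10 genes (log axis) in the 3 control libraries (blue) and 4 Sirt7 scKO libraries (orange), 1 symbol per library, with black bars at the group means. The groups overlapped in each of the 10 genes, and Cd74 was highest at 415 to 605 CPM.

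No gene of the 10 differed between Sirt7 scKO and control muscle beyond the spread of the libraries. With edgeR's quasi-likelihood test, 0 of 10 passed an adjusted p of 0.05, against 0.131% of the 16764 genes tested. At an unadjusted edgeR p under 0.05 there were also 0 of 10, against 13.6% of all genes tested, and DESeq2 and limma voom without quality weights gave 0 at either threshold. The groups overlapped in CPM in all 10, whereas they did not overlap in 12.2% of all genes tested. The log2 fold change (Sirt7 scKO over control) was negative in 8 and positive in 2, with a median of -0.13, against 0.01 over all genes tested. In whole muscle, fewer cells of a type and less RNA per cell cannot be told apart.

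**Figure D2:**
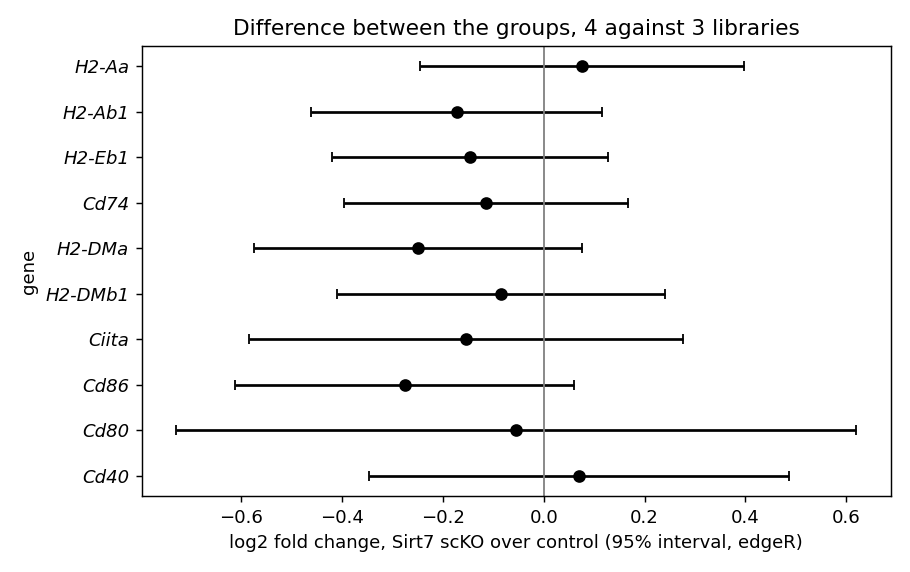
Log2 fold change of each gene, Sirt7 scKO over control, from edgeR (points) with 95% intervals (bars), for 4 against 3 libraries. Every interval includes 0, and the widest, that of Cd80, runs from -0.73 to 0.62.

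H2-Ab1 (ENSMUSG00000073421.5, GRCm38 chromosome 17, 34257689 to 34269419) encodes the beta chain of the I-A molecule. Control replicates 1, 2 and 3 held 224, 341 and 263 CPM of it, and Sirt7 scKO replicates 1, 2, 3 and 4 held 212, 235.5, 284 and 248 CPM, the order used for every gene below. Control replicate 2 was the highest library and the Sirt7 scKO libraries lay within or just below the control range. The means were 276 ± 60.0 and 245 ± 29.9 CPM (SD, n = 3 and 4), a log2 fold change of -0.17 (SE 0.133, 95% interval -0.46 to 0.12, edgeR adjusted p = 0.605).

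H2-Aa (ENSMUSG00000036594.14, chromosome 17, 34282744 to 34287823), the alpha chain that pairs with H2-Ab1, was at 224, 302 and 250.2 CPM in control and at 225, 223, 334 and 311 CPM in Sirt7 scKO. Here Sirt7 scKO replicates 3 and 4 were the highest libraries, and replicates 1 and 2 lay beside control replicate 1. This gave a log2 fold change of 0.08 (SE 0.148, 95% interval -0.24 to 0.40, edgeR adjusted p = 0.861).

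H2-Eb1 (ENSMUSG00000060586.10, chromosome 17, 34305867 to 34316674), the beta chain of the I-E molecule, was at 199, 275 and 229.8 CPM in control and at 179, 196, 251 and 222 CPM in Sirt7 scKO. The order of the libraries was that of H2-Ab1 at both ends, with control replicate 2 highest and Sirt7 scKO replicate 1 lowest. The fit gave a log2 fold change of -0.15 (SE 0.127, 95% interval -0.42 to 0.13, edgeR adjusted p = 0.648). H2-Ea-ps, the locus of the matching alpha chain, is annotated as a polymorphic pseudogene and had 0 counts in every library.

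Cd74 (ENSMUSG00000024610.14, chromosome 18, 60803848 to 60812652), the invariant chain, was at 432, 605 and 532 CPM in control and at 415, 436, 578 and 507 CPM in Sirt7 scKO. As for the beta chains, control replicate 2 was highest and Sirt7 scKO replicate 1 lowest. Its log2 fold change came to -0.11 (SE 0.13, 95% interval -0.40 to 0.17, edgeR adjusted p = 0.746). Without control replicate 2 the log2 fold changes of H2-Ab1 and Cd74 became 0.0094 and 0.0034.

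Both subunits of the peptide exchanger H2-DM lay a few-fold below the chains. H2-DMa (ENSMUSG00000037649.9, chromosome 17, 34119541 to 34139101) was at 58.5, 71.7 and 59.6 CPM in control and at 44.2, 43.6, 57.8 and 68.3 CPM in Sirt7 scKO. Of the Sirt7 scKO libraries, 1 lay inside the control range and 3 below it. Its log2 fold change came to -0.25 (SE 0.151, 95% interval -0.58 to 0.08, edgeR adjusted p = 0.496). Its exons share 360 bases with exons of Brd2 on the other strand, and unstranded reads there cannot be assigned to either gene. H2-DMb1 (ENSMUSG00000079547.3, chromosome 17, 34153072 to 34160230) was at 37.2, 55.2 and 51.9 CPM in control and at 40.9, 39.9, 56.0 and 44.5 CPM in Sirt7 scKO (log2 fold change -0.09, SE 0.15, edgeR adjusted p = 0.843). The lowest of its libraries was control replicate 1. The neighbouring H2-DMb2, 95.4% identical to it over 848 transcript bases, stood at 6.28 ± 0.201 against 6.40 ± 1.06 CPM, and how reads that match both genes were assigned is not given in the sources used here. Of the 3 further class II chain genes tested 0 passed (1 positive, 2 negative), and H2-Oa, a chain of the H2-DM inhibitor H2-O, was 2.001 ± 0.53 against 1.66 ± 1.14 CPM (edgeR adjusted p = 0.806).

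Ciita (ENSMUSG00000022504.9, chromosome 16, 10480059 to 10528418), the class II transactivator, was at 23.1, 27.5 and 24.4 CPM in control and at 13.5, 22.8, 28.0 and 25.9 CPM in Sirt7 scKO. Sirt7 scKO replicate 1 stood apart below, and the other 3 Sirt7 scKO libraries lay between 22.8 and 28.0 CPM, around the control range. Its log2 fold change came to -0.15 (SE 0.199, 95% interval -0.58 to 0.28, edgeR adjusted p = 0.779), and 0.03 without that library. In Sirt7 scKO replicate 1 Ciita had 96 counts (exact 95% Poisson interval 77.8 to 117, counting error alone). Ciita shares 329 exonic bases with Dexi on the other strand.

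Cd86 (ENSMUSG00000022901.13, chromosome 16, 36603869 to 36666081), a ligand of CD28 and CTLA-4, was at 22.8, 18.3 and 19.4 CPM in control and at 13.2, 15.7, 19.3 and 18.7 CPM in Sirt7 scKO. Of the Sirt7 scKO libraries 2 lay within the control range and 2 below it. The log2 fold change was -0.28, with SE 0.155, a 95% interval of -0.61 to 0.06 and an edgeR adjusted p of 0.463. This was the smallest adjusted p among these genes. Cd80 (ENSMUSG00000075122.4, chromosome 16, 38455561 to 38496335), the other ligand of these receptors, was at 9.03, 4.85 and 11.4 CPM in control and at 6.75, 10.99, 9.73 and 4.54 CPM in Sirt7 scKO (log2 fold change -0.05, SE 0.312, edgeR adjusted p = 0.957). Its libraries differed within groups beyond counting error, with 27 counts in control replicate 2 (exact 95% Poisson interval 17.8 to 39.3) and 65 in control replicate 3 (50.2 to 82.8). Cd40 (ENSMUSG00000017652.16, chromosome 2, 165055627 to 165072948), the receptor through which T cells license presenting cells, was at 20.5, 14.7 and 18.0 CPM in control and at 17.7, 16.2, 15.1 and 26.3 CPM in Sirt7 scKO (log2 fold change 0.07, SE 0.193, edgeR adjusted p = 0.903). Sirt7 scKO replicate 4 was its highest library, and without it the log2 fold change was -0.12.

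Within both groups the libraries differed from each other in class II transcripts, and 4 of the 7 lay on 1 side of the mean for all chain and loading genes. Control replicate 2 and Sirt7 scKO replicate 3 lay above the 7-library mean in each of the 6 genes H2-Aa, H2-Ab1, H2-Eb1, Cd74, H2-DMa and H2-DMb1, by 0.30 and 0.20 on the log2 scale on average. Sirt7 scKO replicates 1 and 2 lay below it in each of the 6, with averages of -0.26 and -0.22. Control replicate 1 averaged -0.17, and was above the mean in H2-DMa but lowest of the 7 libraries in H2-DMb1. The order was not the same in every gene: the highest library was control replicate 2 in 4 genes and Sirt7 scKO replicate 3 in 2, and the lowest was Sirt7 scKO replicate 1 in 3, Sirt7 scKO replicate 2 in 2 and control replicate 1 in 1. The highest library exceeded the lowest 1.46-fold in Cd74, 1.61-fold in H2-Ab1 and 1.65-fold in H2-DMa. Cd80 and Cd40 had another order: control replicate 2, highest in 4 of the 6 genes, had the lowest Cd40 level and the second lowest Cd80 level.

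**Figure D3:**
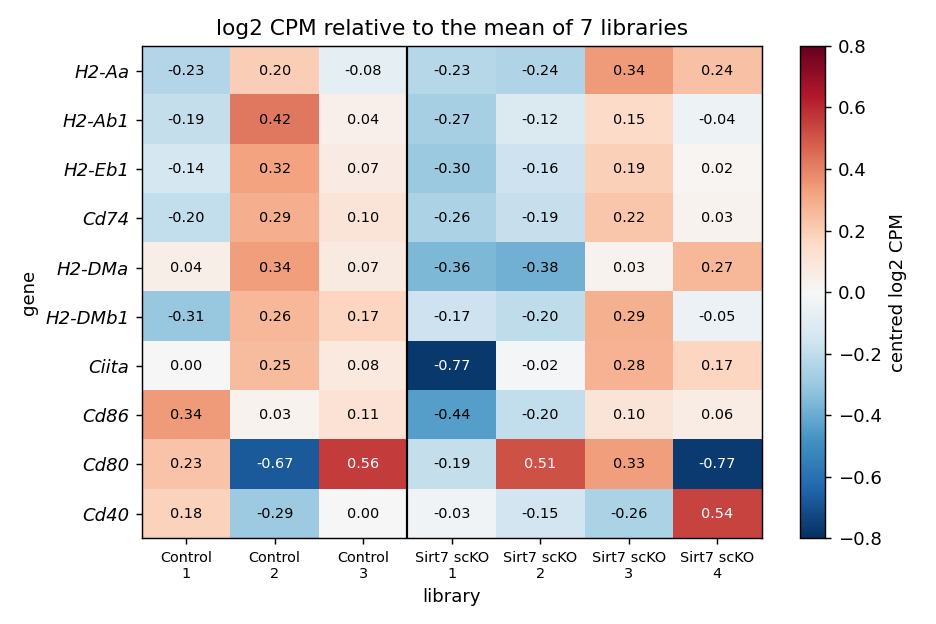
Log2 CPM of each gene (row) in each library (column) relative to the gene's mean over the 7 libraries, with red above and blue below it. Control 2 and Sirt7 scKO 3 are above 0 in the top 6 rows and Sirt7 scKO 1 and 2 below 0, while Cd80 in Control 2 is at -0.67.

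The genes whose levels across the 7 libraries ran closest to those of H2-Ab1 were measured by the root mean square difference of centred log2 CPM among 13063 protein-coding genes. H2-Eb1 came first at 0.0547 and Cd74 ranked 4 at 0.0718, against a median of 0.275 over these genes. H2-DMb1 ranked 28, H2-Aa 418, H2-DMa 1061, Ciita 3359, Cd86 5639, Cd40 11390 and Cd80 12583. The closest genes outside the 10 were Cyp4f18 (0.0615), a leukotriene-metabolising cytochrome, Bin2 (0.0652), a membrane-shaping protein of leukocytes, Bbs4 (0.0917), Arhgap45 (0.0927) and Itpkc (0.0929). All points share library scaling, and the measure is a description.

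Ratios of a pair of genes within a library do not depend on scaling, and 7 were compared by two-sided exact permutation over the 35 ways of dividing 7 libraries into 3 and 4, whose smallest p is 0.0286. The ratio of H2-Aa to H2-Ab1 counts, the 2 chains of 1 molecule, was 1.003, 0.886 and 0.953 in control and 1.06, 0.948, 1.17 and 1.25 in Sirt7 scKO. In 3 of 4 Sirt7 scKO libraries it exceeded every control library, and Sirt7 scKO replicate 2 lay inside the control range. The log2 difference was 0.22 (exact permutation p = 0.143, 0.857 adjusted over the 7 ratios). By contrast H2-Eb1 over H2-Ab1 stayed between 0.805 and 0.898 in all libraries, and Cd74 over H2-Ab1 between 1.77 and 2.05, with log2 differences of 0.01 and 0.05 (exact permutation p = 0.829 and 0.400). H2-DMa over H2-Ab1 differed by -0.11 (exact permutation p = 0.514). Cd86 over Cd80 ran from 1.43 to 4.13 with no order between the groups (log2 difference -0.21, exact permutation p = 0.629). Set against the pan-leukocyte gene Ptprc, H2-Ab1 differed by -0.24 (0.02 ± 0.328 in control and -0.21 ± 0.194 in Sirt7 scKO, mean log2 ratio ± SD, exact permutation p = 0.286; -0.08 without control replicate 2 and -0.41 without control replicate 1), and against the macrophage gene Adgre1 by -0.03 (exact permutation p = 0.857). The adjusted p was 0.857 for every ratio. With a smallest exact permutation p of 0.0286, a single ratio could not have passed an adjusted p of 0.05 over the 7.

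**Figure D4:**
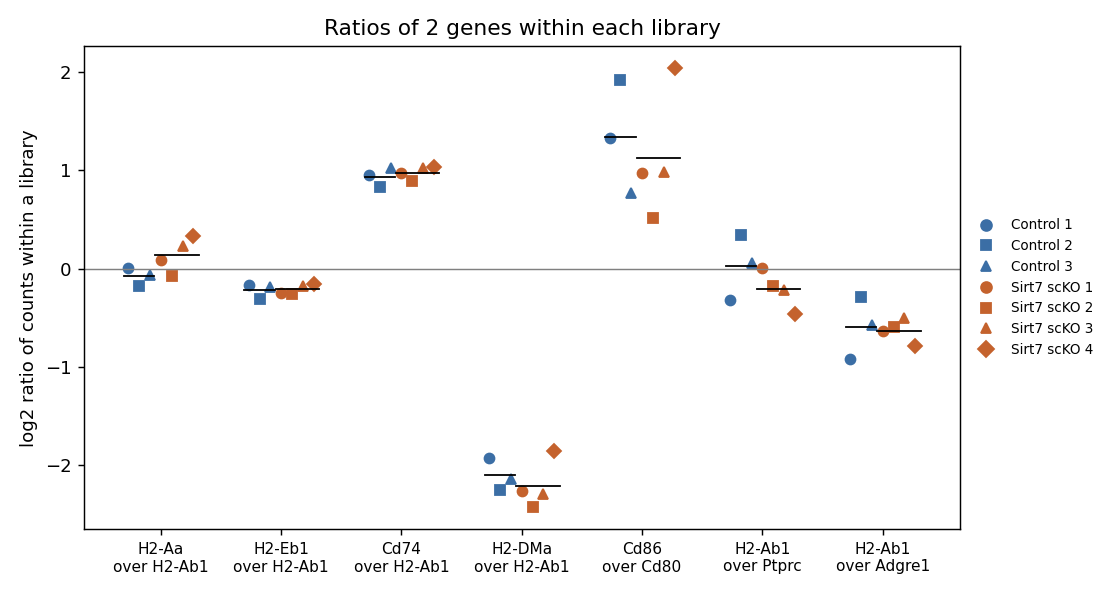
Log2 ratio of the counts of each pair of genes within each library (1 symbol per library, blue control, orange Sirt7 scKO, black bars at group means). H2-Eb1 and Cd74 keep a nearly constant ratio to H2-Ab1, and H2-Aa over H2-Ab1 has its 2 highest values in Sirt7 scKO 3 and 4.

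The factors that act with CIITA were measured beside these genes, and none of the 9 passed the threshold (edgeR adjusted p of 0.234 or more, 7 positive and 2 negative, median log2 fold change 0.15). Nfya, a subunit of the Y box factor NF-Y, was at 71.1, 76.3 and 87.8 CPM in control and at 101, 96.9, 88.6 and 94.0 CPM in Sirt7 scKO. The 2 groups did not overlap, as in 12.2% of all genes tested (log2 fold change 0.28, SE 0.093, edgeR adjusted p = 0.234). Its partner Nfyc had a log2 fold change of -0.24 (edgeR adjusted p = 0.410). The X box subunit gene Rfx5 was 27.8 ± 1.19 against 25.8 ± 3.58 CPM.

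Of 13 genes for processing in the lysosome and for trafficking, 0 passed (6 positive, 7 negative, median -0.05). March1, a ubiquitin ligase that removes class II and CD86 from the cell surface, was at 39.6, 44.2 and 42.9 CPM in control and at 46.6, 53.6, 62.1 and 52.4 CPM in Sirt7 scKO. The groups did not overlap, but the difference did not pass over all genes (log2 fold change 0.35, SE 0.111, edgeR adjusted p = 0.218). The cathepsin gene Ctsh was 202 ± 10.3 against 177 ± 16.3 CPM (edgeR adjusted p = 0.361). Ctss, the cathepsin that makes the last cut in CD74, had a log2 fold change of 0.05 (edgeR adjusted p = 0.882).

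Interferon gamma, the main inducer of Ciita, was barely detected, with 0 to 6 counts of Ifng per library. Of the 7 tested genes of its signalling, 0 passed (4 positive, 3 negative, median 0.07). Jak1 was 173 ± 2.84 against 192 ± 3.82 CPM, with no overlap (edgeR adjusted p = 0.388), and Jak2 had a log2 fold change of 0.29 (edgeR adjusted p = 0.381). Among 7 tested further co-stimulatory and inhibitory ligands 0 passed (4 positive, 3 negative, median 0.02). Cd83, which protects surface class II from removal, was 26.7 ± 1.86 against 19.7 ± 7.36 CPM (edgeR adjusted p = 0.378). Tnfsf9 was 3.52 ± 0.292 against 2.42 ± 0.267 CPM, without overlap (edgeR adjusted p = 0.403).

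Of the genes for the T cell side of the contact, some stood near the levels of Cd86 and Cd80 and others at or near 0. Which cells gave these reads was not tested. Cd28, the receptor of CD80 and CD86, was at 11.2 to 14.6 CPM in control and at 8.44 to 14.5 CPM in Sirt7 scKO (log2 fold change -0.11, edgeR adjusted p = 0.844). Cd40lg, the ligand of CD40, had 0 counts in each library, which allows up to 0.397 to 0.553 CPM of total counts (3 counts per library, counting error alone). Cd3e, a defining T cell gene, had 0 to 7 counts, and of 9 T cell markers the 2 tested, Lck (2.64 ± 0.677 against 2.31 ± 0.46 CPM) and Cd247 (11.99 ± 1.16 against 11.5 ± 1.45 CPM), did not pass. Of 8 counter-receptor genes 3 were tested and 0 passed (0 positive, 3 negative), led by Lag3 (5.52 ± 1.33 against 3.80 ± 0.513 CPM, edgeR adjusted p = 0.379) and Cd4 (13.6 ± 2.5 against 10.9 ± 3.46 CPM, edgeR adjusted p = 0.570).

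Markers of the cell types that can carry class II were measured in the same libraries. The B cell marker Ms4a1 was near 0, with 0 to 4 counts per library, although the immunoglobulin gene Ighm stood at 86.1 ± 6.15 against 85.1 ± 29.1 CPM and the receptor gene Cd79b at 5.24 ± 1.7 against 4.52 ± 2.92 CPM. Of the 9 B cell markers these 2 were tested and 0 passed. The summed level of the 14 monocyte and macrophage markers was 13185 to 13931 CPM in control and 12304 to 15414 CPM in Sirt7 scKO, and no marker of the list was at 0. A large part of this sum was Lyz2, at 6567 to 6958 CPM in control and 6797 to 8300 CPM in Sirt7 scKO. None of the 14 passed (6 positive, 8 negative), led by Mertk (85.8 ± 6.41 against 118 ± 19.9 CPM, edgeR adjusted p = 0.156) and C1qa (1042 ± 78.3 against 829.4 ± 164 CPM, edgeR adjusted p = 0.287). The summed level of the 12 dendritic cell markers was 566 to 634 CPM in control and 517 to 565 CPM in Sirt7 scKO. It was highest in control replicate 2, as were H2-Ab1 and Cd74. The summed levels of the 3 leukocyte genes (1794 CPM) and of the 13 processing and trafficking genes (19469 CPM) were highest in that library too. By contrast the sums of the monocyte and macrophage markers (15414 CPM) and of the B cell markers (131 CPM) were highest in Sirt7 scKO replicate 4. Ptprc alone was also highest there, at 341 CPM against 270 CPM in control replicate 2. Without Fscn1 the sums of the other 11 dendritic cell markers overlapped, at 260.1 to 322 CPM in control and 256 to 283 CPM in Sirt7 scKO. None of the 12 passed (4 positive, 8 negative, median log2 fold change -0.12). Most of the full sum came from Fscn1 (309 ± 3.51 against 274 ± 23.4 CPM, without overlap) and Irf8 (218 ± 25.8 against 198 ± 5.84 CPM), which other cells also express. Ccr7, the receptor by which mature dendritic cells migrate to lymph nodes, was at 2.08, 4.13 and 3.68 CPM in control and at 1.13, 1.70, 1.80 and 0.946 CPM in Sirt7 scKO, without overlap (log2 fold change -1.21, SE 0.358, edgeR adjusted p = 0.188). Batf3 was 6.21 ± 1.86 against 4.07 ± 1.47 CPM (edgeR adjusted p = 0.373). The 4 genes with a positive log2 fold change were Clec9a (0.46, from 4.04 ± 0.744 to 5.58 ± 0.834 CPM, edgeR adjusted p = 0.430), Flt3 (0.44, from 4.35 ± 0.91 to 5.93 ± 1.07 CPM, edgeR adjusted p = 0.461), Cd209a (0.33) and Siglech (0.24). Zbtb46 was 10.1 ± 2.09 against 9.65 ± 1.29 CPM. Of the 3 leukocyte genes 0 passed (1 positive, 2 negative): Ptprc was 267 ± 12.8 against 287 ± 60.9 CPM (0.10 as log2 fold change, edgeR adjusted p = 0.790), Coro1a was 313 ± 39.6 against 265 ± 22.7 CPM (edgeR adjusted p = 0.314) and Laptm5 1091 ± 90.2 against 972 ± 98.3 CPM (edgeR adjusted p = 0.486). In the lists of cells that are not professional presenters 0 passed. Of the 5 endothelial genes 3 were positive and 2 negative (median 0.03), and the 2 negative ones had the smallest p, Tek (log2 fold change -0.33, edgeR adjusted p = 0.329) and Kdr (-0.21, edgeR adjusted p = 0.467). The 5 myogenic genes (2 positive, 3 negative) were led by Des (-0.89, edgeR adjusted p = 0.133) and Myf5 (0.45, edgeR adjusted p = 0.292). The 7 fibre genes (0 positive, 7 negative) were led by Actn3 (-1.57, edgeR adjusted p = 0.0519) and Myh2 (-3.06, edgeR adjusted p = 0.0657). The part of these cell markers and of the fibre markers in the class II levels was not tested.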

How the data were processed

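RNA-seq of whole TA muscle was compared between 3 control and 4 Sirt7 scKO libraries. The deposited values are raw counts per gene and library; per the submitters' processing notes fastp, Bowtie2, featureCounts and the build GRCm38 (mm10) were used. The sources used here give no versions, annotation release, strand setting or multi-mapping setting, and the NEBNext Ultra kit named in the labels' protocols does not mark strand. Of 48820 identifiers 48058 matched GENCODE mouse release 21 (GRCm38), which gave symbols, positions and exonic lengths.

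Genes were kept with filterByExpr (minimum count 10, minimum total 15), leaving 16764, scaled with TMM and fitted with edgeR 4.0.16 (R 4.3.3; glmQLFit and glmQLFTest), adjusted by Benjamini-Hochberg over all of them. The SE is the log2 fold change divided by the square root of F. The common dispersion was 0.0142 (biological coefficient of variation 11.9%). DESeq2 1.42.0, limma 3.58.1, other scalings, filters and dispersions, a replicate block and leaving out each library were alternatives. Paralogs were compared with BLAST 2.17.0. Figures used matplotlib 3.10.9.

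The 10 genes, the 15 lists and the tests were chosen with earlier results of these data known. From each list the 2 genes with the smallest p were named, with genes that mark a cell type by their levels. Rfx5, Ctss, Cd28, Fscn1, Irf8, Clec9a, Cd209a, Siglech, Lyz2, Ptprc, H2-Ea-ps, H2-Eb2 and the overlapping genes were added after their values were seen. H2-Eb2 did not pass the filter.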

Additional observations from a re-analysis of the deposited data

How the results depend on the processing

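No gene of the 10 passed under any of the 18 alternatives: 11 other settings and 7 fits that each left out 1 library. A count of 1 gene had an unadjusted p under 0.05 in 5 of them, and none in the other 13. The smallest adjusted p in any of them was 0.120, for H2-DMa with the replicate block. The median log2 fold change of the 10 lay between -0.17 and -0.12 under the 11 settings and between -0.23 and -0.03 when a library was left out. The number of genes past the threshold in the whole table, 22, became 35 with total-count scaling, 585 with no filter, 149 with DESeq2, 137 with limma voom and quality weights, 56 with robust dispersion, 5 with protein-coding genes only and 537 with the replicate block, and ran from 0 (without control replicate 2) to 330 (without Sirt7 scKO replicate 4). The cause was not tested. The labels do not say whether equal replicate numbers pair the libraries. Deviations from the group means correlated at 0.12, -0.07 and 0.10 for numbers 1, 2 and 3, and at -0.16 to 0.16 for unequal numbers. With so few libraries these values cannot decide whether the numbers pair them. With the block the log2 fold changes of H2-Aa, Cd80 and Cd40 changed sign, to -0.0053, 0.14 and -0.11. Replicate number 4 exists only in Sirt7 scKO, so with the block that library did not enter the difference between the groups. The same genes without Sirt7 scKO replicate 4 gave 0.0087, 0.12 and -0.12, and H2-DMa gave -0.39 with the block and -0.38 without that library. With quality weights the log2 fold change of Cd80 became 0.13.

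Leaving out a library gave -0.038 to 0.20 for H2-Aa, -0.31 to 0.0094 for H2-Ab1, -0.25 to 0.024 for H2-DMb1, -0.24 to 0.0034 for Cd74, -0.28 to 0.028 for Ciita, -0.33 to 0.23 for Cd80 and -0.12 to 0.18 for Cd40. H2-Eb1, H2-DMa and Cd86 kept a negative sign in all 18, and leaving out a library gave -0.26 to -0.018 (without control replicate 2) for H2-Eb1, -0.38 to -0.15 for H2-DMa and -0.36 to -0.18 for Cd86. Of the log2 ratio differences, H2-Eb1 over H2-Ab1 ran from -0.032 to 0.041, Cd74 over H2-Ab1 from -0.0072 to 0.089, Cd86 over Cd80 from -0.52 to 0.077, H2-Ab1 over Adgre1 from -0.20 to 0.12, H2-DMa over H2-Ab1 from -0.22 to -0.018 and H2-Ab1 over Ptprc from -0.41 (without control replicate 1, exact permutation p = 0.0667, 0.467 adjusted over the 7 ratios) to -0.080 (without control replicate 2). The exact permutation p of 0.0667 is the smallest that this test allows when a control library is left out. The ratio of H2-Aa to H2-Ab1 kept its sign, from 0.16 to 0.29. Cd80 had the fewest counts of the 10 genes and the widest 95% interval, -0.73 to 0.62.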

Other observations

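H2-Eb2, a class II beta chain gene beside H2-Eb1, fell below the filter on low counts and was singled out after its values were seen. It had 9, 7 and 10 counts in control replicates 1 to 3 and 3, 4, 4 and 2 counts in Sirt7 scKO replicates 1 to 4, so the groups did not overlap. The share of 12.2% of genes without overlap covers only genes that passed the filter, which H2-Eb2 did not. With no filter its log2 fold change was -1.60 (SE 0.596, edgeR adjusted p = 0.195 over 28443 genes). Its longest transcript is 77.9% identical to that of H2-Eb1 over 779 bases. H2-Eb1 itself did not pass the test.

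The microRNA gene Mir5107, which overlaps Cd74 by 12 exonic bases on the same strand, had 297, 399 and 340 counts in control and 432, 486, 571 and 363 counts in Sirt7 scKO. These values are raw counts, not scaled for library size. Total counts were higher in Sirt7 scKO replicates 1, 2 and 3 (7115959, 7553137 and 6671671) than in any control library (at most 5777563). The Mir5107 counts were noticed while overlaps of the 10 genes were listed. Whether these reads came from Cd74 transcripts was not tested.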
